A study of Sus scrofa with 36 samples.

Results

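The let-7 family was followed in neonatal pig hearts through every mature miRNA whose name begins ssc-let-7, together with ssc-miR-98, which belongs to the same family. The rule found 9 of the 411 mature miRNAs in the table, namely ssc-let-7a, ssc-let-7c, ssc-let-7d-5p, ssc-let-7d-3p, ssc-let-7e, ssc-let-7f, ssc-let-7g, ssc-let-7i and ssc-miR-98. The hearts came from domestic Yorkshire pigs of both sexes at 4 ages, written P1, P3, P7 and P28 for the postnatal day. No pig was treated or genetically altered, and each whole heart held myocytes and nonmyocytes. Of 24 pigs in the study, the 12 sequenced by CD Genomics gave the small RNA libraries described here, 3 per age, and the same company's total RNA libraries gave the gene counts. Replicates are called 4, 5 and 6, as in the headers of the table, and values of an age are listed in that order.

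let-7 miRNAs are short RNAs that silence messenger RNAs with matching sites, and they accumulate as embryonic tissue matures. Each is cut from a hairpin precursor, which can yield a 5p and a 3p arm. The family's 5p arms share their seed, the stretch that finds the target, so they are thought to share many targets. The RNA-binding proteins LIN28A and LIN28B block processing of let-7 precursors in immature cells. let-7d-3p is the opposite arm of the let-7d hairpin and does not carry the let-7 seed.

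Small RNA libraries held 2921130 to 7917255 expected counts. The 7 cardiomyocyte genes checked were all abundant in the total RNA, with ACTC1, the cardiac actin, at 11007 to 23241 CPM. CPM are counts per 1000000 of a library's total after TMM scaling, which sets libraries to the same level for most features, except where CPM of the library total are named. One library stood apart. P3 replicate 6 was nearest, over all tested miRNAs, to P7 replicate 4, whereas each of the other 11 libraries was nearest to one of its own age. Member calls that changed without it, and the P3 family sum and median, are given both ways. Summed markers of other cell types also moved with age. Erythroid miRNAs (3 tested of 3) rose from 1153-1813 CPM at P1 to 3919-4638 at P28, and leukocyte miRNAs (3 of 3) from 58.3-70.2 to 210-341. The leukocyte miRNAs were miR-150 and both arms of miR-142, whereas miR-223, also looked for, was not found. Fibroblast miRNAs (5 of 5) went from 6493-8584 to 4889-5260 CPM, and 4 of the 5 were called lower at P28, among them miR-199a-3p and miR-199b-3p, which are 1 measurement. Cardiomyocyte miRNAs (7 tested of 7) summed to 385273-423507 CPM at P1 and 500738-600947 at P28, but only miR-1, miR-133a-3p and miR-133b were called higher. The other 4 were not called, with log2 fold changes from -0.18 for miR-133a-5p to 0.65 for miR-499-3p. The ranges at P1 and P28 overlapped for endothelial (2 of 2) and smooth muscle miRNAs (4 of 4), and the liver miRNA miR-122 fell from 0.952-12.5 CPM at P1 to 0.421-1.87 at P28 (log2 fold change -2.75, edgeR adjusted p = 0.00727). Their part in the let-7 results was not tested.

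The family was abundant at every age. All members together took 3.85%, 3.86% and 4.35% of a library's counts at P1, then 3.79%, 2.88% and 2.92% at P3. At P7 the shares were 2.85%, 3.40% and 3.55%, and at P28 they were 2.68%, 2.72% and 2.27%. Thus the 3 P1 libraries were above all 9 later ones, and P3 replicate 4 lay just below them. After TMM scaling the family sum was 40446 ± 2954 CPM at P1 (SD, n = 3). The sum was 30309 ± 4494 CPM at P3 (32273 without P3 replicate 6), 29584 ± 4351 at P7 and 29600 ± 1041 at P28. On that scale every P3 library, replicate 6 or not, was below every P1 library and the later ages overlapped. Fewer cells with high let-7 and less let-7 per cell cannot be told apart in whole-heart RNA.

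Most of this sum came from 4 members. Average levels of the members were compared as CPM of the library total. Over all 12 libraries let-7f averaged 11281 CPM of the library total, which placed it 16th among the 411 mature miRNAs. let-7g at 6929 CPM and let-7i at 6774 CPM followed as 17th and 18th, and let-7a at 4173 CPM was 22nd. let-7c averaged 2167 CPM and let-7e 814 CPM. The scarce members were let-7d-5p at 225 CPM, miR-98 at 162 CPM and let-7d-3p at 79.2 CPM. In each of the 12 libraries let-7f was in place 1, let-7a in place 4, let-7c in place 5 and let-7e in place 6. Places were exchanged between neighbours elsewhere in the order. let-7i was second in all P1 and P7 libraries and in P3 replicate 6, whereas let-7g was second in P3 replicates 4 and 5 and in all P28 libraries. Reads that match several members were shared out by the authors as fractions, so levels of close relatives such as let-7a, 7c and 7f are less certain than the family sum, which was whole to within 0.011 in 12 of 12 libraries. let-7d-3p, which resembles no other member, had whole counts in every library.

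**Figure D1:**
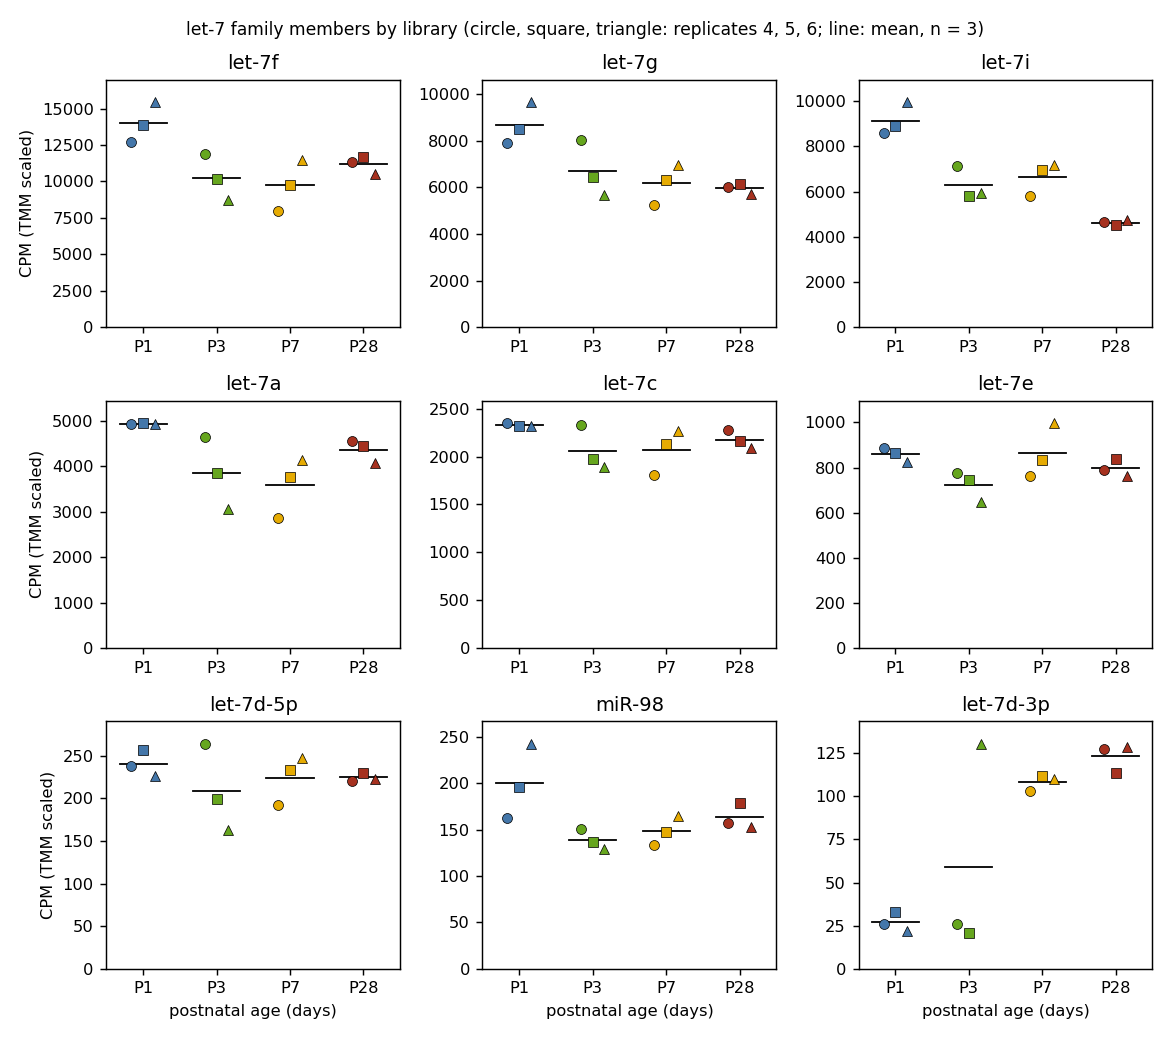
Level of each let-7 family member in the 12 small RNA libraries, in TMM-scaled CPM (linear axes from 0) against postnatal age. Points are libraries, lines are means of 3, and panels run from the most to the least abundant member. let-7i is lowest at P28 (4504 to 4720 CPM), and let-7d-3p is high at P7, at P28 and in P3 replicate 6.

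All 9 members passed the filter on low counts and entered edgeR's quasi-likelihood fit of 257 miRNAs. A member was called at a Benjamini-Hochberg adjusted p under 0.05 over all 257. The comparisons with P1 share their P1 libraries. Between P1 and P7 the test called 5 of 9 members (55.6%), against 26.5% of all tested miRNAs. Of these, 4 members fell, where 12.8% of all miRNAs did, and 1 rose, where 13.6% did. Without P7 replicate 4 the P7 count was 1 (11.1%), and without any other 1 library it was 4 to 6. With library totals the test called 1 member and 61 of the 257 miRNAs there. Between P1 and P28 it called 3 of 9 (33.3%), which is near the 37.7% of all miRNAs. Here 2 members fell and 1 rose, against 18.7% lower and 19.1% higher among all miRNAs. P1 and P3 differed in 1 member (11.1%), which fell, where 4.28% of all miRNAs were called and 1.56% fell. Leaving out 1 library changed that count to 0 (P1 replicate 5, P1 replicate 6 or P3 replicate 6), 2 (P1 replicate 4) or 3 (P3 replicate 4), and the P28 count to 5 without P1 replicate 4. The median log2 fold change of the members was -0.36 from P1 to P3, -0.43 to P7 and -0.18 to P28, and that of all miRNAs lay between -0.02 and 0.01. Without P3 replicate 6 the P3 median was -0.22, and over the other libraries left out it ran from -0.54 (without P3 replicate 4) to -0.30. The P28 median ran from -0.29 to -0.15, and was -0.27 to -0.29 without P1 replicate 4, P3 replicate 4 or 5, or P7 replicate 5. With library totals the 3 medians were -0.27, -0.28 and -0.38, so that the order of the ages depends on the scaling.

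let-7i fell furthest from P1 to P28 and was called in more comparisons than any other member. It measured 8575, 8899 and 9956 TMM-scaled CPM at P1 and 7143, 5817 and 5954 at P3. At P7 it was 5824, 6955 and 7194, and at P28 it was 4630, 4504 and 4720. Every later library was below every P1 library, and the P28 libraries lay below all others. Its log2 fold change from P1 to P28 was -0.99 (SE 0.13, adjusted p = 3.42e-05), or 0.505-fold. From P7 to P28 it fell by 0.53 (SE 0.13, adjusted p = 0.00580), the only member called there (11.1%, against 30.7% of all miRNAs called and 16.7% lower). From P1 to P3 it fell by 0.54 (SE 0.13, adjusted p = 0.0286). This last call was lost without P1 replicate 5, P1 replicate 6 or P3 replicate 6 (log2 fold change -0.50, adjusted p = 0.0667 without the last), with library totals (-0.45, adjusted p = 0.0579) and in a fit of only those ages, whereas the call between P1 and P28 held in all 19 alternative analyses.

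let-7g, whose precursor lies alone as that of let-7i does, also fell. Its values were 7923, 8525 and 9662 CPM at P1 and 8030, 6439 and 5686 at P3. They were 5258, 6305 and 6974 at P7 and 6027, 6147 and 5719 at P28. All P7 and P28 libraries were below the P1 libraries, and P3 replicate 4 was within the P1 range. The log2 fold change was -0.55 from P1 to P28 (SE 0.15, adjusted p = 0.00913) and -0.49 from P1 to P7 (SE 0.15, adjusted p = 0.0240). The P7 call was lost with library totals (-0.34, adjusted p = 0.106) and without P7 replicate 4 (-0.41, adjusted p = 0.0697). From P7 to P28 it differed by -0.05 (95% interval -0.36 to 0.26), so a further change was not detected with TMM scaling. With library totals let-7g was called lower there (-0.40, adjusted p = 0.0430).

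With TMM scaling let-7f and let-7a had their lowest means at P7, although neither was called between P7 and P28 (log2 fold changes 0.20 and 0.28). By library totals both were lowest at P28, and these changes were -0.15 and -0.07. let-7f, the most abundant member, measured 12694, 13889 and 15438 CPM at P1, 11855, 10165 and 8718 at P3, 8004, 9754 and 11468 at P7, and 11321, 11654 and 10541 at P28. All 9 later libraries were below P1. It fell from P1 to P7 (log2 fold change -0.52, SE 0.15, adjusted p = 0.0199), a call lost with library totals (-0.37, adjusted p = 0.0766), and its difference to P28 missed the threshold (-0.33, adjusted p = 0.0989). That difference passed in 8 of 19 alternatives, among them library totals (-0.53, adjusted p = 0.00905) and scaling on miRNAs outside the family (-0.44, adjusted p = 0.0231), and without P1 replicate 4, P3 replicate 4 or 5, or P7 replicate 4 or 5. let-7a was 4928, 4953 and 4926 CPM at P1, between 3061 and 4639 at P3, between 2857 and 4145 at P7, and between 4064 and 4563 at P28. It fell from P1 to P7 (-0.46, SE 0.16, adjusted p = 0.0472) and was not called at P28 (-0.18, 95% interval -0.52 to 0.16). The P7 call of let-7a held in 11 of 19 alternatives, and was lost with library totals (adjusted p = 0.171) and without P1 replicate 4 or 5, P7 replicate 4 or 5, or P28 replicate 4 or 5 (0.0522 to 0.144). The lowest value of both at P7 came from P7 replicate 4. Without that library the P1 and P7 comparison called 1 member, let-7d-3p, in place of 5, and let-7i and let-7f then had an adjusted p of 0.0608. With library totals too, let-7d-3p was the 1 member called between P1 and P7.

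miR-98, whose precursor lies beside that of let-7f, measured 162, 196 and 242 CPM at P1, and 151, 137 and 129 at P3. It was 133.2, 147 and 165 CPM at P7 and 158, 179 and 152 at P28, so that all P3 libraries lay below P1 whereas P7 and P28 overlapped it. miR-98 was called only when P1 was compared with the mean of the 3 later ages (log2 fold change -0.42, SE 0.14, adjusted p = 0.0351), a call that held in 11 of 19 alternative analyses. It was lost with library totals, with no filter and without P1 replicate 5 or 6, P7 replicate 4 or P28 replicate 4 or 6 (adjusted p = 0.0516 to 0.101). From P1 to P28 it was called lower with library totals (-0.49, adjusted p = 0.0389) and without P1 replicate 4 (-0.51, adjusted p = 0.0294). The comparison with the later ages called 5 of 9 members (55.6%, against 23.3% of all miRNAs), with let-7i, 7g, 7f and miR-98 lower and let-7d-3p higher. Among all miRNAs 11.7% were lower and 11.7% higher. let-7c, let-7e and let-7d-5p were called in none of the 7 tests. With library totals, let-7e was called lower from P7 to P28 (-0.47, adjusted p = 0.0140) and for any difference (adjusted p = 0.0410). let-7c ranged from 1809 to 2351 CPM, let-7e from 647 to 997 and let-7d-5p from 163 to 264 over the 12 libraries. The 95% intervals from P1 to P28 were -0.37 to 0.17 for let-7c, -0.39 to 0.18 for let-7e and -0.48 to 0.28 for let-7d-5p, so changes of these sizes are compatible with the data. A test of any difference among the 4 ages called let-7i, let-7d-3p, let-7g and let-7f, 4 of 9 (44.4%), near the 49.4% of all miRNAs. In that test let-7f was lost without P1 replicate 5 (adjusted p = 0.0611) and let-7d-3p without P1 replicate 6 (0.0631). P3 and P7 differed in 0 members by edgeR, against 14.4% of all miRNAs, with 0 members at an unadjusted p under 0.05 and 0 by DESeq2.

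**Figure D2:**
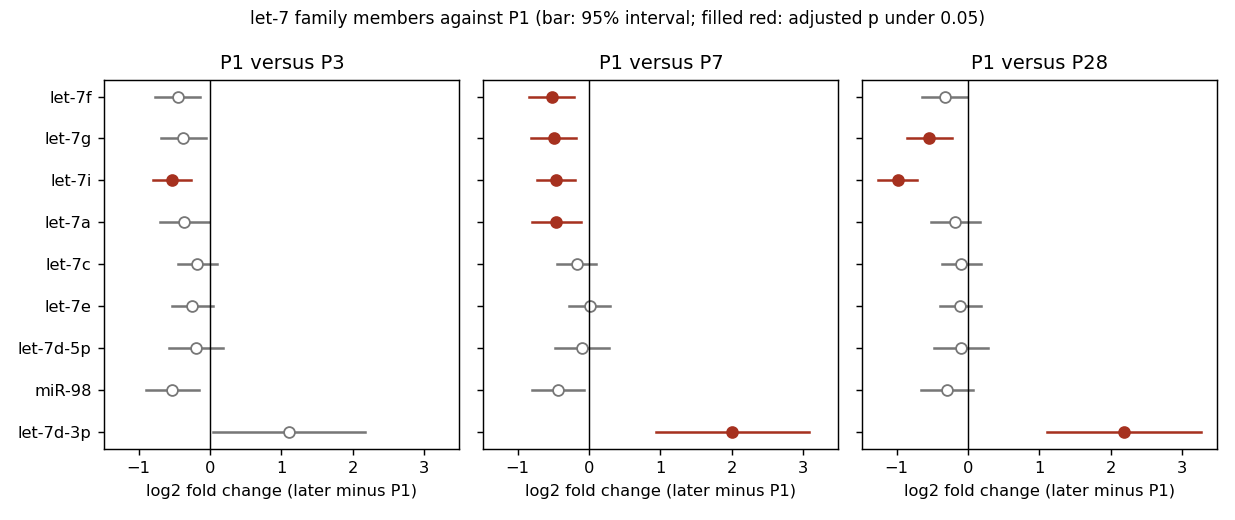
Log2 fold change of each member from P1 to P3, P7 and P28, with 95% intervals from edgeR. Filled red points passed an adjusted p of 0.05. The abundant members lie below 0 at P7, let-7i is lowest at P28 (-0.99), and let-7d-3p lies far above 0 at P7 (2.01) and P28 (2.19).

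let-7d-3p went the other way. It measured 25.7, 33.1 and 21.7 CPM at P1 and 25.8, 20.7 and 130 at P3. The values were 103, 112 and 110 CPM at P7 and 127, 114 and 129 at P28. Thus 5 libraries lay between 20.7 and 33.1 CPM and 7 between 103 and 130, with none in between, and only P3 held both. The log2 fold change was 2.01 from P1 to P7 (SE 0.50, adjusted p = 0.0120) and 2.19 from P1 to P28 (SE 0.50, adjusted p = 0.00374), or 4.57-fold. From P7 to P28 it differed by 0.18 (95% interval -0.82 to 1.19), which did not pass the test.

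P3 replicate 6 decides what is seen between P3 and its neighbours. With all libraries, ssc-let-7d-3p differed by 1.11 from P1 to P3 (adjusted p = 0.269) and by 0.90 from P3 to P7 (adjusted p = 0.244). Without that library the differences were -0.21 (adjusted p = 0.646) and 2.22 (adjusted p = 3.57e-06). Within P3, replicate 6 was 5.06-fold above the higher of the other two, the widest such gap on the log2 scale among the 257 tested miRNAs. A gap of more than 1 on that scale was found for 18 miRNAs, of which 8 were higher in replicate 6. Its place at P3 rests on its column header alone, and whether it is labelled correctly was not tested. The calls from P1 to P7 and from P1 to P28 held without it (adjusted p = 2.94e-06 and 1.58e-07). The SE of the change from P1 to P28 was then 0.18, against 0.50 with all libraries. Without P1 replicate 6 the adjusted p from P1 to P7 was 0.0596, that to P28 still passed, and the call against the mean of the later ages was lost (0.0764).

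let-7d-5p, the arm with the let-7 seed, did not follow. It was 238, 257 and 226 CPM at P1, 264, 199.4 and 163 at P3, 192, 233 and 247 at P7, and 221, 230 and 222 at P28. The ratio of 5p to 3p counts, which needs no scaling between libraries, was 9.25, 7.76 and 10.4 at P1 and 10.23, 9.64 and 1.25 at P3. It was 1.87, 2.08 and 2.24 at P7 and 1.74, 2.02 and 1.73 at P28. The 3p arm thus made up 9.98% ± 1.34 of let-7d counts at P1 and 35.4% ± 2.04 at P28 (SD, n = 3). The 3p counts behind these ratios ran from 81 to 810 per library and the 5p counts from 527 to 1639.

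Over the 4 ages the log2 ratio differed in an exact permutation test over all 15400 ways to place the libraries in 4 ages of 3 (p = 0.0453, two-sided), with a change of -2.32 from P1 to P28. Without P3 replicate 6 the p was 0.00208. Without any 1 of the other libraries it lay between 0.0523 and 0.102, so that the call with all 12 libraries is close to the threshold. P1 and P28 alone, with 3 libraries each, cannot give a p below 0.1, but their ratios did not overlap. Both arms of 48 miRNAs were tested, and let-7d had the widest change in log2 ratio from P1 to P28 of these, followed by one of -1.71 (1 count added to each arm).

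**Figure D3:**
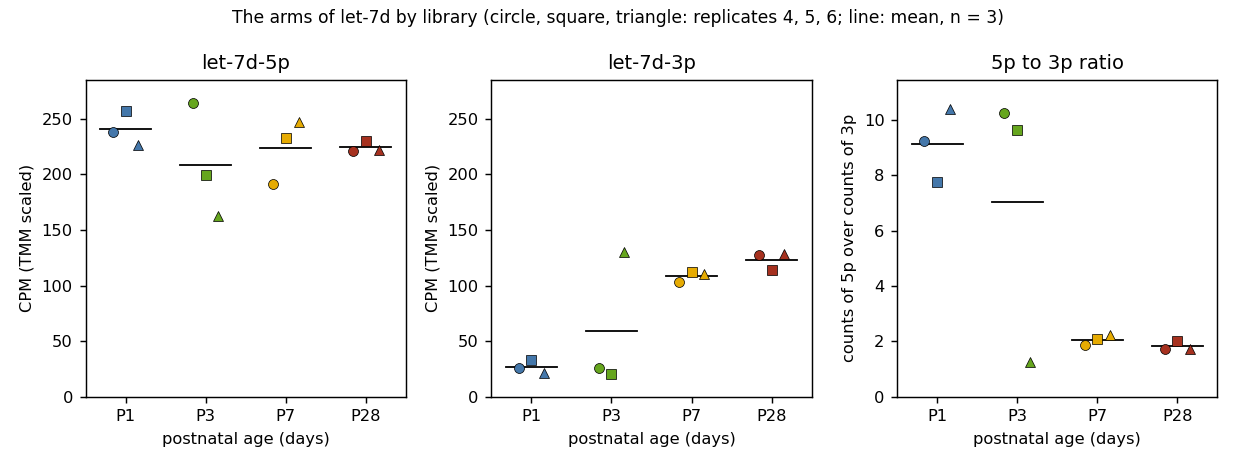
TMM-scaled CPM of let-7d-5p and let-7d-3p on the same axis range, and the ratio of their counts, by library and age (lines are means of 3). The 5p arm stays between 163 and 264 CPM, the 3p arm steps from 20.7-33.1 to 103-130 CPM, and the ratio falls from 7.76-10.4 in 5 libraries to 1.25-2.24 in 7.

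As the members moved differently, the makeup of the family changed. let-7i supplied 22.6% ± 0.280 of the family's counts at P1, 20.9% ± 1.47 at P3 and 22.6% ± 1.02 at P7, but 15.6% ± 0.897 at P28 (SD, n = 3). let-7f went from 34.6% ± 0.913 at P1 and 32.8% ± 1.15 at P7 to 37.7% ± 0.697 at P28, and let-7a from 12.2% ± 0.886 to 14.7% ± 0.420 between P1 and P28. let-7g held 21.5% ± 0.602 at P1 and 20.1% ± 0.145 at P28. No P28 library overlapped an earlier one for let-7i, let-7f, let-7g or let-7a. Each member was compared with the rest of the family by the exact permutation test over the 4 ages, adjusted over the 9 members. The test called 8 of 9, with adjusted p = 0.00596 for let-7i and let-7f, 0.0212 for let-7a and 0.0394 for let-7d-3p, whereas miR-98 was not called (adjusted p = 0.167). The call of let-7d-3p was lost without any 1 of the P1 libraries (adjusted p = 0.0808 to 0.0977), that of let-7a without P28 replicate 4 (0.0650) and that of let-7d-5p without P1 replicate 6 (0.0519). Shares are linked, because one that falls raises the others.

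**Figure D4:**
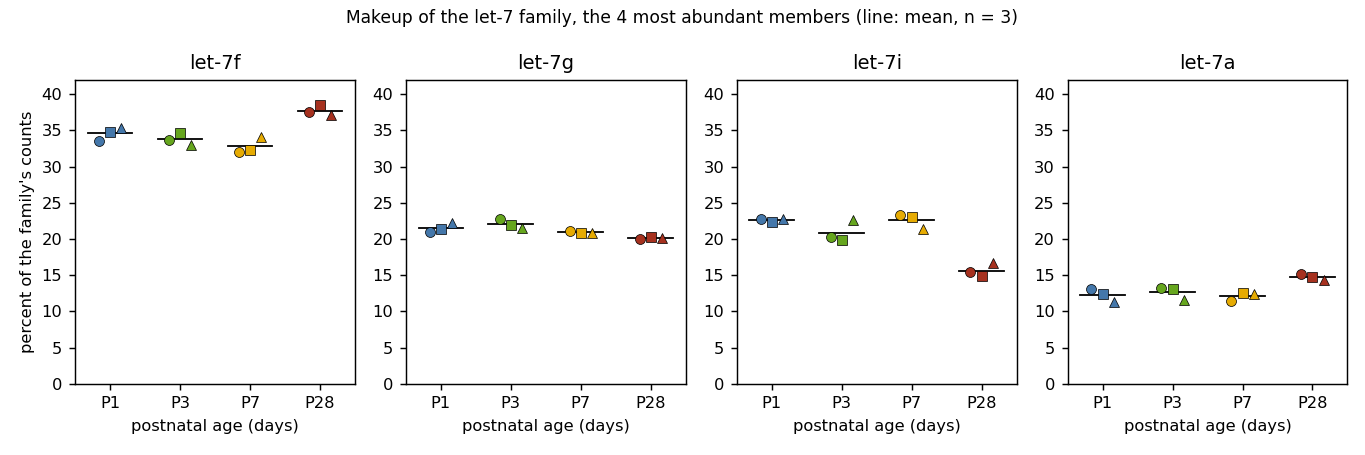
Share of the family's counts, in percent, held by let-7f, let-7g, let-7i and let-7a in each library against age (lines are means of 3, axes from 0). The share of let-7i lies between 19.8% and 23.3% until P7 and between 14.88% and 16.6% at P28, where let-7f is between 37.1% and 38.5%.

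Members from neighbouring precursors were compared by their levels. In the RefSeq annotation (Sscrofa11.1, used for neighbours only) the precursors let-7a-2, 7f-2 and 7d lie within 10000 bases of each other, let-7a-1 lies near MIR100, let-7c near MIR99A, let-7e near MIR125A and MIR99B, and let-7f-1 near MIR98. let-7g and let-7i have no miRNA gene within that distance. Across the 12 libraries, which share their ages, log2 CPM of let-7a and let-7f had a Pearson r of 0.94, let-7f and miR-98 0.90, let-7a and let-7d-5p 0.80, and let-7f and let-7d-5p 0.69. By comparison, let-7a and let-7c, which lie apart, had 0.95. let-7g and let-7i had 0.84. For let-7d-5p and let-7d-3p, from one hairpin, r was -0.34. The entry values of let-7a and let-7f (0 of 24 each) and of let-7c and miR-98 (0 of 12 each) were never whole. Whether the splitting of shared reads raised the r values of close relatives was not tested.

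The miRNAs of the miR-99, miR-100 and miR-125 families, known as companions of let-7 precursors, were represented by 5 in the table, and all 5 were tested. MIR125B was not within 10000 bases of a let-7 precursor in the annotation, unlike the other four. miR-100, beside let-7a-1, rose from 15794 ± 426 CPM at P1 to 25482 ± 2418 at P28 (log2 fold change 0.69, SE 0.14, adjusted p = 0.00113), while let-7a was -0.18. The value of let-7a sums 2 precursor entries, so the output of let-7a-1 alone is not known. miR-99a, beside let-7c, fell from 21853 ± 3966 CPM at P1 to 13170 ± 3024 at P7 (-0.73, SE 0.18, adjusted p = 0.0120) and rose again to 19434 ± 1359 at P28 (0.56 from P7, SE 0.18, adjusted p = 0.0319). It also fell from P3 to P7 (-0.62, adjusted p = 0.0421). let-7c kept within 1809 to 2351 CPM. miR-125b rose from P7 to P28 (0.46, SE 0.16, adjusted p = 0.0426). With library totals the rises from P7 to P28 were not called, at 0.21 for miR-99a (adjusted p = 0.391) and 0.10 for miR-125b (0.659), and neither was the fall of miR-99a from P3 to P7 (-0.57, adjusted p = 0.0614). Those 3 calls passed in 11, 8 and 13 of 18 alternatives, and were lost without P7 replicate 5 (0.37, 0.32 and -0.48) and without P7 replicate 4. The rise of miR-100 to P28 and the fall of miR-99a to P7 passed in all 18, with 0.48 and -0.58 by library totals. miR-125a and miR-99b, beside let-7e, were called in none of the tests with TMM scaling, and neither was let-7e.

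The regulators and targets of let-7 were read from the total RNA counts. Of 15 such genes in the table, 13 passed the filter, 5 regulators and 8 targets, among 5526 genes tested. The gene counts do not cover every chromosome. Other regulators and targets looked for, among them DICER1, DROSHA, HMGA2 and MYC, were not found in them and were not examined. LIN28A had 0 counts in all 12 libraries, which held 8887176 to 14883849 counts, and LIN28B had at most 7. Neither could be tested, and the depth allows no statement on a change. TRIM71, a ubiquitin ligase of stem cells, had at most 18 counts. The terminal uridylyltransferase TUT4, which tags let-7 precursors for decay, and the Argonaute genes AGO1 and AGO4, whose proteins hold miRNAs on their targets, were not called in either test, nor was any of the 5 regulators. In other analyses of any difference, TENT2, a nucleotidyltransferase, was called with DESeq2 and without P3 replicate 4 or 5, TUT4 without P3 replicate 4 and AGO4 without P3 replicate 5. The log2 fold changes from P1 to P28 were 0.34 for TENT2, 0.14 for TUT4, 0.03 for AGO1 and 0.15 for AGO4.

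Between P1 and P28 the test called 1 of 13 genes (7.69%, lower), where 15.3% of all genes were called and 7.93% were lower. This was IGF2BP2, an RNA-binding protein of growing tissue, at 174, 123 and 124.9 CPM at P1 and 92.3, 93.8 and 93.6 at P28 (log2 fold change -0.59, SE 0.15, adjusted p = 0.0217). All P28 libraries lay below the P1 libraries. The call was lost without P1 replicate 4 or any 1 of the P28 libraries, and 3, 4 and 2 genes were called without P3 replicate 4, 5 and 6. Any difference among the 4 ages was called for 4 of 13 (30.8%, against 21.4% of all genes), and these were IGF2BP2, E2F2, PBX3 and ARID3A, all of them targets. E2F2, a cell cycle transcription factor, was 6.34, 8.71 and 11.6 CPM at P1, 4.99, 9.57 and 17.1 at P3, 20.8, 29.8 and 19.6 at P7, and 3.69, 5.19 and 1.38 at P28 (adjusted p = 0.00775). It was highest at P7 and lowest at P28. PBX3, a homeodomain factor, was also highest at P7 (47.4 ± 8.75 CPM) and ARID3A, a DNA-binding factor, lowest there (12.2 ± 0.171 CPM, adjusted p = 0.0223 and 0.0402). The call of ARID3A was lost with library totals, with no filter and without any 1 of the P1, P7 or P28 libraries. The count was 7 without P3 replicate 4, 8 without P3 replicate 5, 2 without P7 replicate 4 or any 1 P28 library, and 1 without P7 replicate 5.

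The miRNAs most like the summed let-7 members without let-7d-3p, by Pearson r of log2 CPM over the 12 libraries, were miR-423-3p (0.84), miR-215 (0.82), miR-199a-3p (0.78), miR-199b-3p (0.78) and miR-339-5p (0.73). miR-199a-3p and miR-199b-3p are among the fibroblast markers, and their counts stood in a ratio of 0.4982 to 0.4998 in every library. They cannot be told apart here and are 1 measurement, not 2. miR-423-3p ran from 805-904 CPM at P1 to 497-550 at P28. miR-215 was scarce, at 1.47 to 10.4 CPM over the 12 libraries. Those most like let-7d-3p were miR-1306-5p (0.98), miR-7134-5p (0.95) and miR-139-5p (0.95). Without P3 replicate 6 these were 0.98, 0.95 and 0.96, and miR-199a-3p had 0.84 and miR-339-5p 0.68 with the summed members. By likeness to the summed members, miR-423-3p, miR-199a-3p, miR-199b-3p, miR-215 and miR-339-5p then ranked 2, 3, 4, 5 and 7. Another miRNA thus ranked first without that library. miR-139-5p measured 215, 209 and 296 CPM at P1, 269, 232 and 556 at P3, 647, 696 and 673 at P7, and 701, 715 and 626 at P28. miR-1306-5p measured 18.7, 22.1 and 16.6 CPM at P1, 21.2, 18.2 and 36.7 at P3, and between 32.1 and 36.7 at P7 and P28. Both were high in P3 replicate 6 and low in the other P3 libraries, as let-7d-3p was. These r values describe 12 libraries that share their ages, and age alone can raise them.

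**Figure D5:**
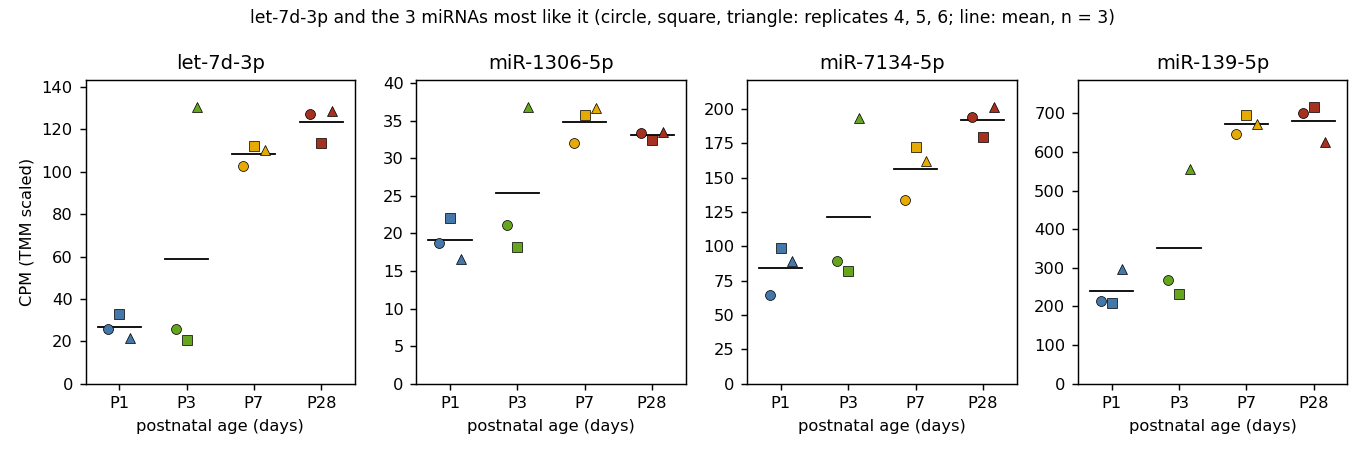
TMM-scaled CPM of let-7d-3p and of the 3 miRNAs most like it, by library and age (lines are means of 3, axes from 0). In all 4 panels P3 replicate 6 (triangle) lies near the P7 and P28 libraries and the other P3 libraries near P1.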

How the data were processed

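Small RNA libraries of 12 whole hearts (NEBNext kit, size selected) were analysed, as the study did for miRNAs, without batch correction. The authors deposited expected counts for each combination of a mature form with a hairpin, not normalized, where ambiguous reads are split into fractions (81.0% of values were whole), and counts per gene without normalization. The aligner, counter and build of these 2 tables are not given in the sources used here. Entries of a mature miRNA were summed (62 of 411 had several) and rounded to whole numbers. One line of the gene table without counts was left out of 9815 genes. Circular RNA tables were not used. Columns were placed by the age in their header. Their numbers 4 to 6 differ from the labels' sample numbers, and nothing ties them to a label.

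Features with at least 10 counts in at least 3 libraries were tested with edgeR 4.0.16 in R 4.3.3 (quasi-likelihood test, TMM, all 4 ages in one fit, Benjamini-Hochberg adjustment over all features tested, adjusted p under 0.05). TMM factors ran from 0.800 to 1.14. log2 CPM used a prior count of 2. Alternatives used DESeq2 1.42.0, other scalings and filters, the study's threshold (unadjusted p of 0.05 or less, absolute log2 fold change over 0.5), and each library left out. Exact permutation tests enumerated every placement of the 12 libraries in 4 ages of 3. The tests were tested on simulated data. Members, gene lists and partners were chosen with earlier results of these data known. All members were named, with all cluster partners, LIN28A, LIN28B and the pathway genes called, and the miRNAs most like the family (5) and let-7d-3p (3) by r. TRIM71, TENT2, TUT4, AGO1 and AGO4 were added after their values were seen. Intervals assume that the 3 pigs of an age represent it.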

Additional observations from a re-analysis of the deposited data

How the results depend on the processing

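The falls of let-7i and let-7g and the rise of let-7d-3p from P1 to P28 passed in all 19 alternatives, with log2 fold changes of -1.19 to -0.96, -0.75 to -0.52 and 1.93 to 2.36. Scaling by library totals alone shifted the median of all miRNAs by -0.21 from P1 to P28, by 0.16 from P1 to P7 and by -0.36 from P7 to P28. It called 0 members between P1 and P3, 1 between P1 and P7, 5 between P1 and P28, and 3 between P7 and P28. Among all miRNAs it split the calls from P1 to P28 into 33 higher and 73 lower, against 49 and 48 with TMM, those from P1 to P7 into 47 and 14, against 35 and 33, and those from P7 to P28 into 13 and 83, against 36 and 43. Scaling on miRNAs outside the family gave 39 and 64 from P1 to P28, with a shift of -0.11. Between P1 and P3, DESeq2 called 2, a fit of only those ages 0 and the study's threshold 3. That threshold called 2 between P1 and P7 and 2 between P1 and the later ages. For genes from P1 to P28, DESeq2 and no filter each called 2 and the study's threshold 3. DESeq2 called 7 genes for any difference.

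Leaving out 1 library at a time gave 0 to 3 members called between P1 and P3, 1 to 6 between P1 and P7, 3 to 5 between P1 and P28, and 0 to 1 between P3 and P7. It gave 0 to 4 genes between P1 and P28 and 1 to 8 for any difference, and a change in log2 arm ratio of -2.43 to -2.22. The cause of these changes was not tested.

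The column numbers were not taken to pair the libraries. Correlations of same-numbered libraries' deviations were over 0.1 in 2 of 18 pairs for miRNAs (-0.275 to 0.204) and 5 of 18 for genes (-0.186 to 0.331). Of these, the 3 gene pairs of P1 with P28 were all over 0.1 (0.138 to 0.331). For miRNAs the same number correlated best in 9 of 36 combinations. With a replicate block the members called were 1, 4 and 3 from P1 to P3, P7 (without let-7a, adjusted p = 0.0650) and P28, and 3 for any difference, where let-7f was lost (adjusted p = 0.0501). miR-98 was lost against the later ages (0.0543). IGF2BP2 stayed called from P1 to P28, and 3 genes were called for any difference, without ARID3A. The arm ratio kept its change of -2.32 but had an exact permutation p of 0.0781, and the shares of let-7a and let-7d-3p were no longer called (adjusted p = 0.0580 and 0.0801). With 3 libraries an age, the changes of let-7d-3p carried wide intervals. From P1 to P28 its SE was 0.50 with all libraries and 0.18 without P3 replicate 6. The other scarce members, let-7d-5p and miR-98, had an SE of 0.18 and 0.17 there with all libraries.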
